A study of Mus musculus with 5 samples.

Results

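Rasgrf1, Lama2, Rbfox1, Kcnq5, Prss56, Zic2, Tox, Shisa6, Zmat4 and Lrrc4c are the mouse counterparts of genes for which loci of common human refractive error are named in genome-wide association studies. They were found by gene name in the deposited count table, in which each of the 10 had a row among 33636, and all 10 had enough counts to be tested together with 17432 genes in all. Their expression was compared between retinas of eyes with form-deprivation myopia (FDM) and retinas of uncovered fellow eyes.

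The mice were male wild-type C57BL6/J animals. A diffuser goggle, which blurs the image on the retina, was fixed over the right eye from postnatal day (P) 28, and retinas were collected 2 weeks later, at P42. The left eye was not covered and is the control, so the groups share strain, sex and age. The control eyes belong to animals that wore a goggle. The data comprised 2 FDM libraries, FDM 1 and FDM 3, and 3 control libraries, Control 1 to Control 3, from 3 mice. The labels gave refractive errors of 0.976 and 0.2745 diopters (D) for the FDM eyes and of 2.446 to 3.15 D for the control eyes. The second FDM sample bears the number 2 in the labels and 3 in the count table, and the number of the table is used here. By these numbers Control 2 has no FDM library from the same mouse.

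Refractive error arises when the length of the eye does not match the focal length of its optics. During postnatal growth the retina senses image quality and sends signals through the retinal pigment epithelium (RPE) and choroid to the sclera, which sets how far the eye elongates, and blur from a diffuser disturbs this feedback. Association loci are mostly non-coding and are named after a nearby gene, so that the name by itself does not say in which tissue, or through which gene, a locus acts.

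The libraries held 40599047 to 56534931 estimated counts, and levels are given in CPM, the count of a gene per 1000000 counts of the scaled library. A count of 3 corresponded to 0.0526 to 0.0751 CPM, so that the members, with 33 counts or more in every library, were all above this floor. Photoreceptor markers were abundant, with a summed level of 6 rod markers of 49600 to 62400 CPM. Markers of other tissues differed between libraries. The summed level of 10 RPE markers was 79.9 and 67.5 CPM in FDM 1 and FDM 3. It was 85.2 CPM in Control 1, 285 CPM in Control 2 and 258 CPM in Control 3. In the test described below 7 of the 10 were called lower in FDM, compared with 1.16% of all genes. The summed level of 9 lens markers was 1920 CPM in FDM 3 and 2.86 to 19.1 CPM in the other 4 libraries. All 9 were called higher in FDM by that test (0.453% of all genes), although only FDM 3 was high. The summed level of 4 muscle markers was 41.3 CPM in Control 3 and 6.36 to 7.73 CPM elsewhere.

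None of the 10 refractive error genes passed the test for a difference between FDM and control retinas. The test was edgeR's quasi-likelihood test with an unadjusted p value threshold of 0.05, which called 281 genes in all (1.61%), 79 of them higher (0.453%) and 202 lower (1.16%) in FDM. This balance rested on Control 2, without which 355 genes were higher and 195 lower. Fewer genes were called than a threshold of 0.05 would give with no difference at all, so 0 calls among 10 members carry little weight. The test called 0 of the 10 members by the unadjusted p value, DESeq2 likewise called 0 (0.987% of all genes), and every member had an edgeR Benjamini-Hochberg adjusted p value of 1, as no gene passed after adjustment. Of the 10 members, 5 had log2 fold changes above 0 and 5 below, and their median was 0.003, compared with -0.013 over all genes tested. The median size of the log2 fold change, regardless of sign, was 0.052 for the members and 0.066 for all genes. FDM and control values overlapped for all 10 members, whereas they did not overlap for 10.6% of all genes, with FDM below all controls for 6.67% and above them for 3.97%.

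**Figure D1:**
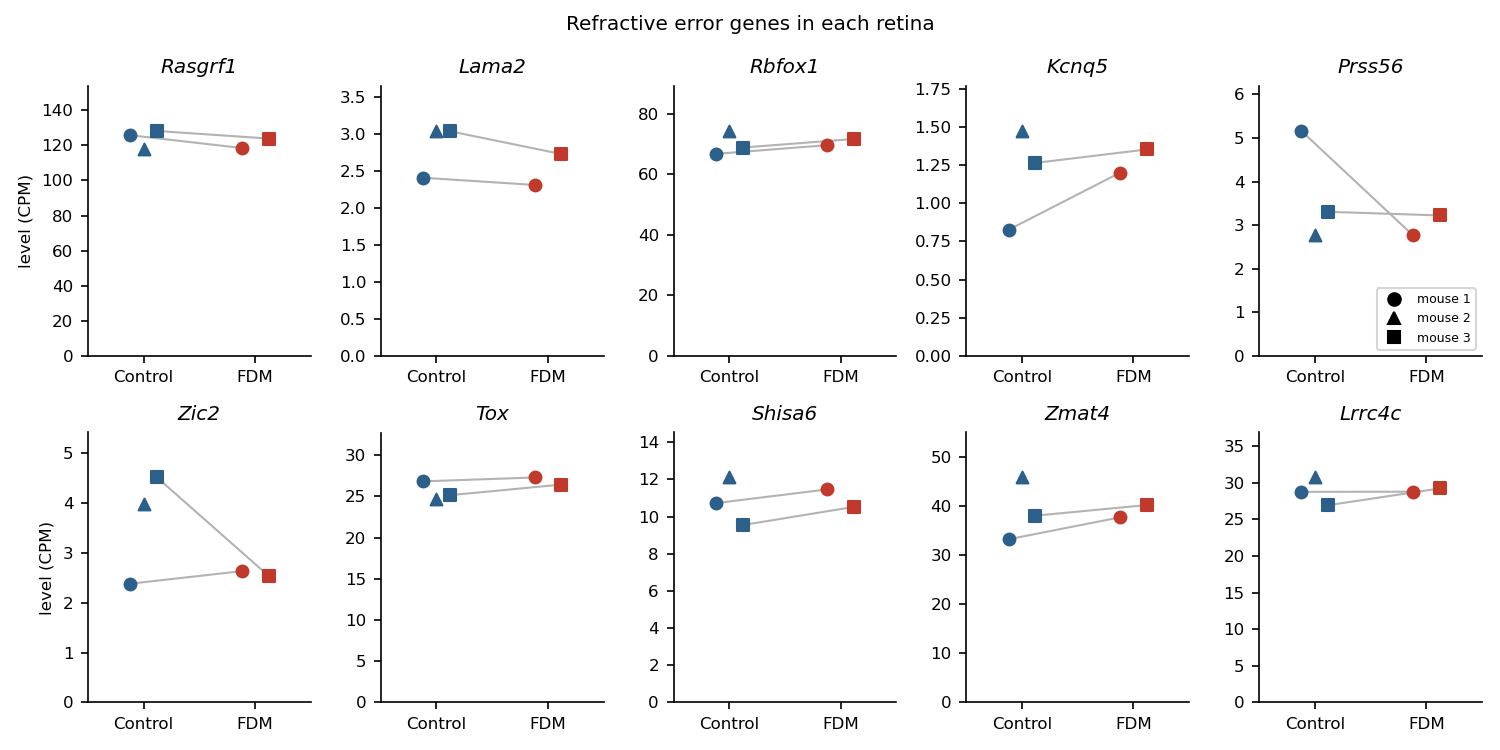
Level (CPM, linear axes from 0) of each refractive error gene in the 3 control (blue) and 2 FDM (red) retinas. Symbols mark the mouse, grey lines join the eyes of a mouse, and the FDM values lie within or overlap the control range in all 10 panels.

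How far a change could have gone unseen differed between members. The 95% interval of the fold change stayed within 1.2-fold in either direction for 4 of the 10 genes (22.1% of all genes tested), within 1.5-fold for 6 (73.7% of all), within 2-fold for 9 (87.9% of all) and within 3-fold for all 10 (96.3% of all). The 4 with the narrowest intervals were Rasgrf1, Rbfox1, Tox and Lrrc4c. The intervals were widest for Kcnq5, from a fold change of 0.685 to 1.66, Prss56, from 0.518 to 1.25, and Zic2, from 0.459 to 1.1, and Zic2 was the member not held within 2-fold.

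**Figure D2:**
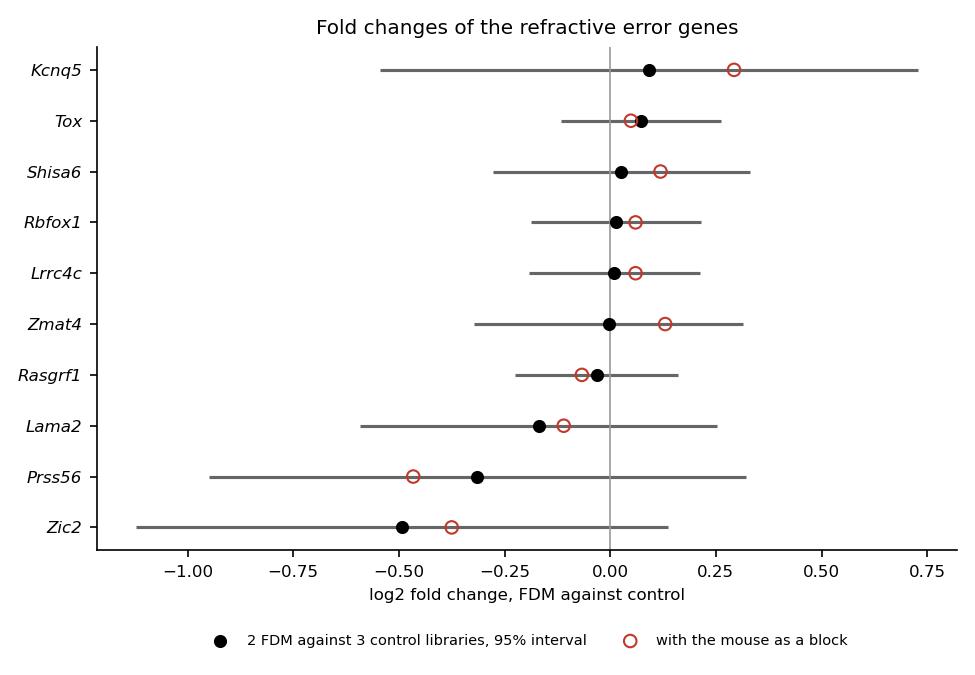
Log2 fold change in FDM against control retinas for each gene, with the 95% interval of the edgeR fit (black) and the estimate with the mouse as a block (open red circles). Every interval includes 0, and the intervals of Zic2, Prss56 and Kcnq5 are the widest.

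The members spanned a wide range of levels in control retinas. Per kb of annotated exon, Rbfox1 was highest at 20.1 CPM per kb, followed by Rasgrf1 at 14.6, Zmat4 at 9.24, Shisa6 at 6.84, Tox at 6.45 and Lrrc4c at 6.23 CPM per kb. A lower group held Prss56 at 1.72 and Zic2 at 1.48 CPM per kb, and Lama2 at 0.288 and Kcnq5 at 0.170 CPM per kb were lowest. The control values overlapped between the neighbours Shisa6 and Tox, Tox and Lrrc4c, and Prss56 and Zic2, so these pairs have no order, and the other neighbours did not overlap. When lengths were taken from the coding transcript with the most exons, an alternative chosen after the values were seen, Rasgrf1 came first at 30.3 and Rbfox1 came next at 22.8 CPM per kb, and Lrrc4c moved up to the place after Zmat4. The gene model of Shisa6 was only 1.58 kb long.

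Rasgrf1 encodes a guanine nucleotide exchange factor that couples calcium signals to Ras and Rac in neurons. It lies at chr9:89909908-90026977 on the plus strand (GRCm38). Its level was 118.5 and 123.9 CPM in FDM 1 and FDM 3 and 125.8, 118.0 and 128.2 CPM in Control 1, 2 and 3. The FDM values fell inside the control range, and Rasgrf1 was the steadiest member, with a highest value only 1.09 times the lowest. The log2 fold change was -0.03 ± 0.08 (SE), and the 95% interval allowed fold changes of 0.855 to 1.12.

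Rbfox1 encodes an RNA-binding protein that governs alternative splicing in neurons, and it lies at chr16:5885355-7411526 (plus strand). It was at 69.57 and 71.61 CPM in the FDM libraries and at 66.7, 74.25 and 68.78 CPM in Control 1, 2 and 3. Again the FDM values were enclosed by those of the controls, and the log2 fold change was 0.01 ± 0.09 (SE), with an interval of the fold change from 0.878 to 1.16.

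Kcnq5, Shisa6 and Lrrc4c act at the neuronal membrane. Kcnq5 (chr1:21398403-21961942, minus strand) encodes a Kv7 channel subunit that carries a slow, non-inactivating potassium current. It had only 52 and 65 estimated counts in FDM 1 and FDM 3 and 33, 84 and 60 in Control 1, 2 and 3, or 1.2 and 1.35 CPM against 0.827, 1.47 and 1.26 CPM. The lowest and the highest values were both controls, and the log2 fold change of 0.09 ± 0.27 (SE) had an interval from -0.55 to 0.73. Shisa6 (chr11:66211725-66525964, minus strand), an auxiliary protein of AMPA-type glutamate receptors, was at 11.46 and 10.52 CPM in FDM and at 10.72, 12.1 and 9.54 CPM in the controls, so that the FDM values lay inside the control range. Its log2 fold change was 0.03 ± 0.13 (SE), and with the authors' factors it was 0.21. Lrrc4c (chr2:96318169-97631666, plus strand) encodes the netrin-G ligand NGL-1, an adhesion molecule of excitatory synapses. Its values were 28.77 and 29.21 CPM in FDM and 28.75, 30.71 and 26.93 CPM in the controls, with a log2 fold change of 0.01 ± 0.09 (SE). The FDM libraries differed least from each other here, and both were within the control range.

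Lama2 and Prss56 encode secreted proteins. Lama2 (chr10:26980036-27619758, minus strand) encodes the laminin alpha-2 chain of basement membranes. It had 100 and 131 counts in the FDM libraries and 96, 173 and 144 in Control 1, 2 and 3, corresponding to 2.31 and 2.72 CPM against 2.4, 3.03 and 3.03 CPM. Control 1 resembled the FDM libraries and the other controls were higher. The log2 fold change was -0.17 ± 0.18 (SE), and it ran from -0.29 without FDM 3 to -0.06 without FDM 1.

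Prss56 (chr1:87183313-87188405, plus strand) encodes a serine protease made by Müller glia, and its loss or alteration is known to change axial length of the eye. It was at 2.77 and 3.22 CPM in FDM 1 and FDM 3 and at 5.16, 2.77 and 3.31 CPM in Control 1, 2 and 3. Control 1 stood apart above the other 4 libraries, which lay close together. The log2 fold change was -0.31 ± 0.27 (SE; interval -0.95 to 0.32), and without Control 1 it was -0.02. The summed level of 6 Müller glia markers was 4150 CPM in Control 1 and 4140 to 4560 CPM in the other libraries.

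Zic2, Tox and Zmat4 encode nuclear or nucleic acid binding proteins. Zic2 (chr14:122475435-122479852, plus strand) is a zinc finger transcription factor best known in the eye for directing uncrossed axons of retinal ganglion cells. It was at 2.63 and 2.54 CPM in FDM 1 and FDM 3, 2.38 CPM in Control 1, 3.98 CPM in Control 2 and 4.51 CPM in Control 3. Control 1 was as low as the FDM libraries, and Controls 2 and 3 were higher. Zic2 had the largest difference among the members, a log2 fold change of -0.49 ± 0.27 (SE; interval -1.12 to 0.14), and it did not pass the test. Without Control 1 the log2 fold change was -0.71 (edgeR adjusted p = 0.447) and it passed the unadjusted threshold, making it the 1 member of 10 called there, against 5.42% of all genes called and 3.2% called lower. With any other library left out the log2 fold change ran from -0.52 to -0.30.

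Tox (chr4:6686353-6991557, minus strand), a high mobility group box protein, was at 27.29 and 26.43 CPM in FDM and at 26.82, 24.68 and 25.14 CPM in the controls. FDM 1 was the highest library and FDM 3 lay below Control 1, and the log2 fold change was 0.07 ± 0.08 (SE). Zmat4 (chr8:23636019-24156585, plus strand), a zinc finger protein whose function in the retina is poorly known, was at 37.67 and 40.17 CPM in FDM and at 33.21, 45.78 and 38.01 CPM in the controls. The controls spread widely on either side of the FDM values, and the log2 fold change was 0.00 ± 0.14 (SE), with a sign that depended on the scaling, from -0.007 to 0.012.

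The eyes of a mouse were then compared with each other, for mouse 1 (FDM 1 and Control 1) and mouse 3 (FDM 3 and Control 3). Each difference is given with its counting error, which does not include the variation between separate eyes, and the test with the mouse as a block follows. The clearest were Prss56 in mouse 1, with a log2 difference of -0.90 ± 0.17 (counting SE), and Zic2 in mouse 3, with -0.83 ± 0.16. Neither was repeated in the other mouse, where the difference of Prss56 was -0.04 ± 0.16 in mouse 3 and that of Zic2 was 0.14 ± 0.20 in mouse 1.

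The remaining differences between fellow eyes were smaller. Zmat4 was higher in the FDM eye by 0.18 ± 0.05 on the log2 scale in mouse 1 and by 0.08 ± 0.05 in mouse 3. For Rasgrf1 the differences were -0.09 ± 0.03 in mouse 1 and -0.05 ± 0.03 in mouse 3. Kcnq5 differed by 0.53 ± 0.32 in mouse 1 and by 0.10 ± 0.26 in mouse 3, where the error reflects its few counts. Of the 20 differences, 5 were larger than 2 counting SE, namely Rasgrf1, Prss56 and Zmat4 in mouse 1 and Zic2 and Lrrc4c in mouse 3. This share of 25% compares with 30.06% of such differences over all genes tested.

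The sign was the same in both mice for 9 of the 10 genes, with 3 lower and 6 higher in both FDM eyes, compared with 55% of all genes tested. The exception was Zic2. For Lrrc4c the difference in mouse 1 was 0.00, so its sign there carries no weight. No member differed by more than 2 counting SE in both mice. Some signs came from differences smaller than the counting error, such as Tox (0.02 ± 0.06) and Lama2 (-0.06 ± 0.21) in mouse 1. On the authors' normalized signal the count was 8 of 10, compared with 53.75% of all genes, as Lama2 in mouse 1 went from -0.06 to 0.06. The median size was 0.091 and 0.088 on the log2 scale in mouse 1 and mouse 3 for the members and 0.103 and 0.098 for all genes, and for Prss56 in mouse 1 the difference equalled the range among the controls. With the mouse as a block in edgeR, 0 of the 10 members passed, while 1261 of all genes did (7.23%; 3.57% higher and 3.67% lower, and 0.31% after adjustment). The members nearest to the threshold in this fit by mouse were Prss56, with a log2 fold change of -0.47, and Zmat4, with 0.13, both with an edgeR adjusted p = 0.695. With the second FDM library paired with Control 2 instead, as the label numbers would have it, again 0 of the 10 passed (2.52% of all genes).

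**Figure D3:**
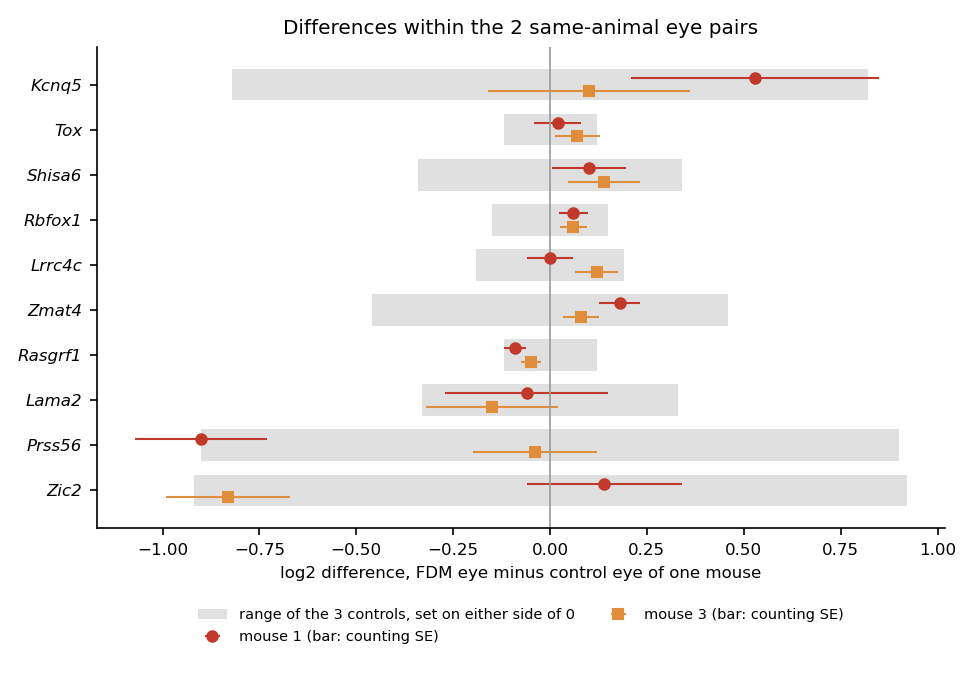
Log2 difference between the FDM eye and the control eye of mouse 1 (circles) and mouse 3 (squares), with the counting SE as bars and the log2 range of the 3 controls as grey bands on either side of 0. Prss56 in mouse 1 and Zic2 in mouse 3 lie near -0.9 and -0.83, and their other pair lies near 0.

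The members fell into a steadier and a more variable set. Over the 5 libraries, the highest value was 1.09 to 1.14 times the lowest for Rasgrf1, Rbfox1, Tox and Lrrc4c, 1.27 to 1.38 times for Shisa6, Lama2 and Zmat4, and 1.78 to 1.89 times for Kcnq5, Prss56 and Zic2. The SD of the log2 level ranked at percentiles 7.99 to 15 among all genes tested for the first set and at percentiles 86 to 91.3 for the last. Among the controls the coefficient of variation was 27.8% for Kcnq5, 33.5% for Prss56 and 30.6% for Zic2, and that from counting alone was 13%, 7.93% and 8.05%. For Zmat4, which had 1326 counts or more in every library, these values were 16.3% and 2.32%.

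**Figure D4:**
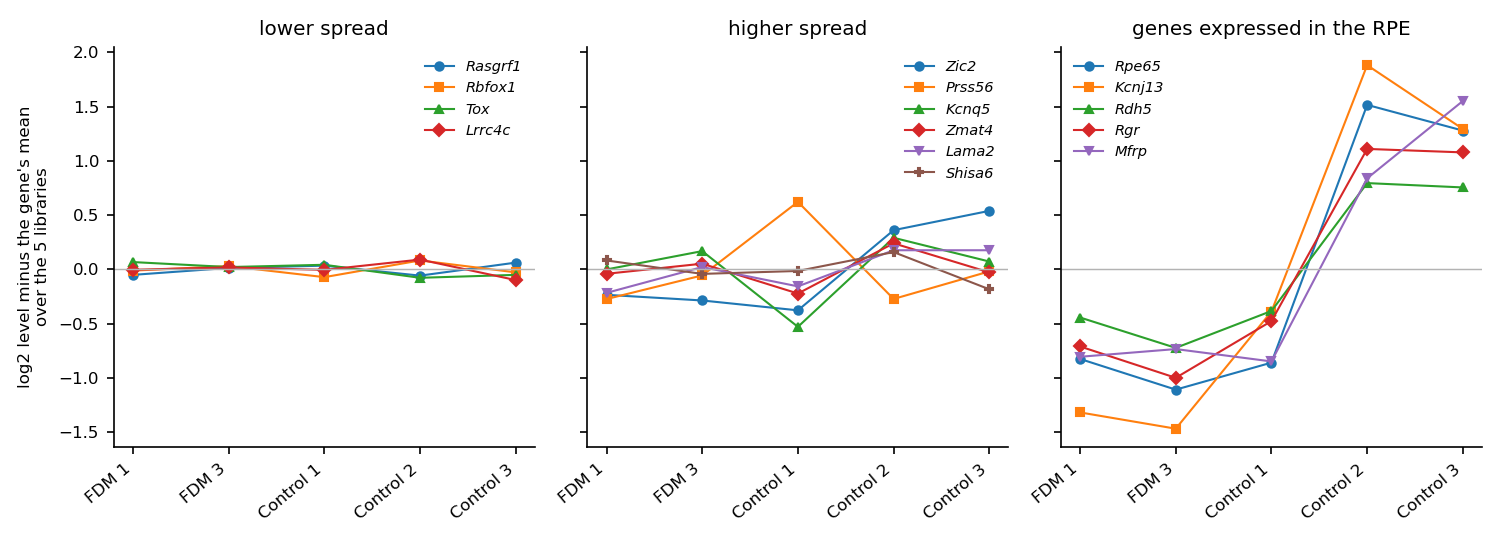
Log2 level in each library minus the mean of the gene over the 5 libraries, for 4 members with the lowest spread (left), the other 6 members (middle) and 5 genes expressed in the RPE (right); lines only join the values of a gene. Zic2 is high in Controls 2 and 3, as are the RPE genes, whereas Prss56 is high in Control 1.

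The libraries in which Zic2 was high were those with high RPE markers. Rpe65, the visual cycle isomerohydrolase of the RPE, was at 5.49 and 4.51 CPM in the FDM libraries, 5.36 CPM in Control 1, 27.9 CPM in Control 2 and 23.6 CPM in Control 3. Lama2 was also highest in Controls 2 and 3, at 3.03 CPM in either, against 2.31 and 2.72 CPM in FDM and 2.4 CPM in Control 1. Prss56 did not follow this order, since its highest library was Control 1. The part of RPE or other adherent tissue in the Zic2 and Lama2 values was not tested. In bulk tissue more cells of a type and more RNA per cell cannot be told apart.

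The members were also set beside paralogs of their families. Rasgrf1 made up 32.3% of the Rasgrf level per kb in FDM and 31.9% in control retinas, the rest being Rasgrf2. The family shares use all annotated exon and depend on this length. With the coding transcript with the most exons, Rasgrf1 was at 30.3 rather than 14.6 CPM per kb in controls. Shares were not computed with that length. Rbfox1 held 45.3% and 44.9% of the Rbfox level, about as much as Rbfox2 with 40.1% and 40.4%. Lama2 gave 4.98% and 6.02% of the laminin alpha chains, of which Lama5 gave 56.3% and 53.4%.

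The shares of other members were likewise close in FDM and control retinas. Shisa6 held 28.8% and 28.5% among 4 Shisa genes, Lrrc4c 20.4% and 20.2% of the netrin-G ligands, Tox 14.2% and 14% of the Tox genes, and Zmat4 11.4% and 11.1% of the Zmat genes. Lrrc4c, too, depended on the length used, with 9.2 rather than 6.23 CPM per kb in controls for its coding transcript with the most exons. No paralog shown passed the test.

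Other Zic genes had log2 fold changes below 0 like Zic2, with -1.14 for Zic4 and -0.29 for Zic5, and neither passed the test. Zic1, which acts in neural development, was at 6.04 and 5.63 CPM in FDM, 5.46 CPM in Control 1, 11.1 CPM in Control 2 and 8.61 CPM in Control 3, again highest in Controls 2 and 3, and its log2 fold change was -0.53. Zic5 lies 9.8 kb from Zic2 and was at 1.55 and 1.6 CPM in FDM and at 1.3, 2.65 and 1.79 CPM in Control 1, 2 and 3. Its lowest value, too, was that of Control 1.

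**Figure D5:**
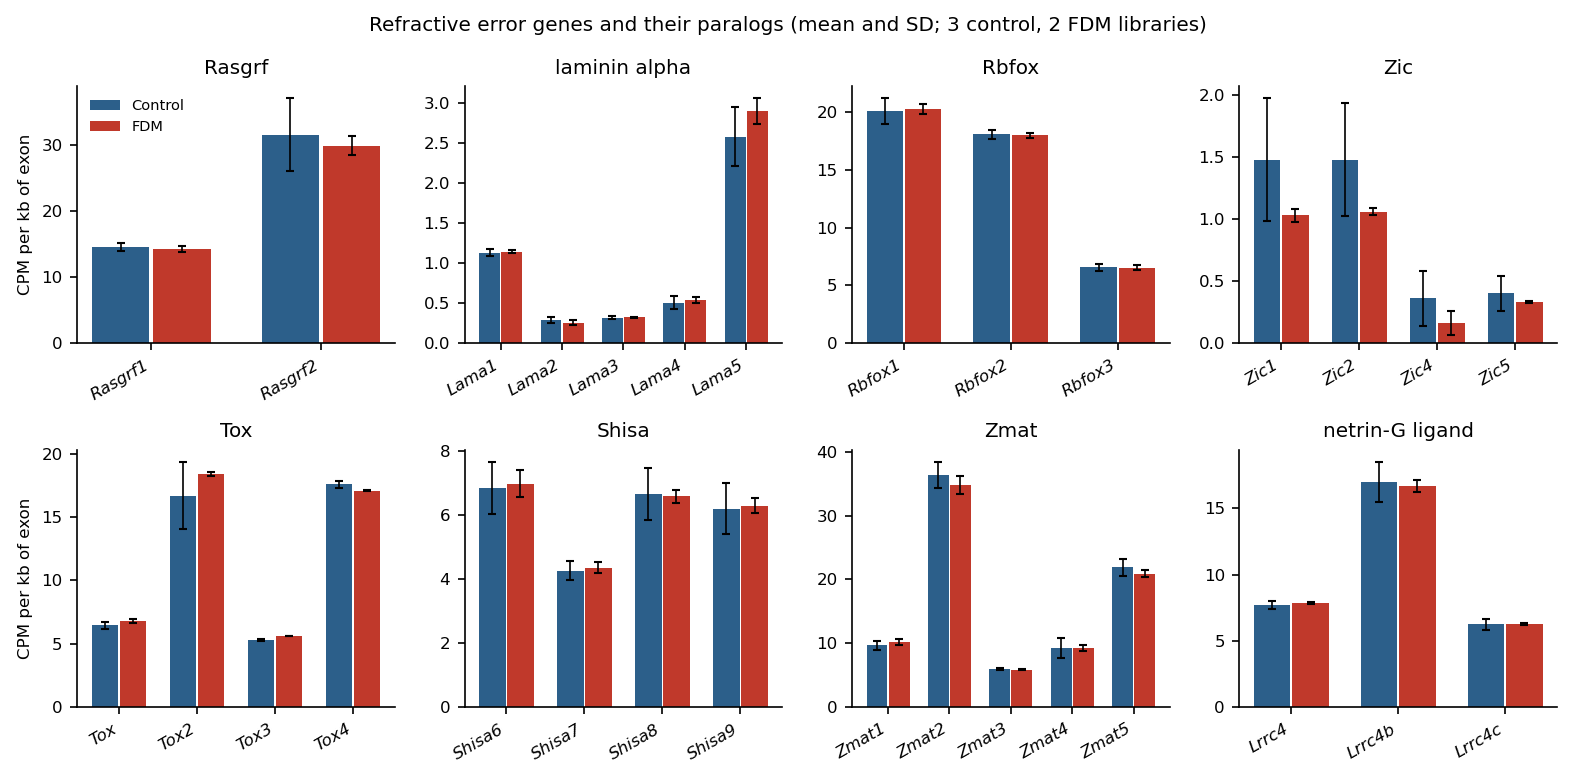
Mean level per kb of exon (CPM per kb, axes from 0) of 8 refractive error genes and paralogs of them in control (blue, n = 3) and FDM (red, n = 2) retinas, with SD as error bars. None of the genes shown passed the test, and the means of the Zic genes shown are lower in FDM, with wide error bars for Zic1 and Zic2 in the controls.

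Genes that work with the members did not pass the test either, which called 1.61% of all genes. Of 20 genes of Ras and MAPK signalling 0 were called, with a median log2 fold change of -0.03, and the most abundant was Araf, a Raf kinase, with 0.07 ± 0.09 (SE). Of 20 laminins and laminin receptors (Sgcd was listed too but had too few counts) 0 were called, with a median of 0.000, led in abundance by Dmd (dystrophin, -0.09 ± 0.15) and Dag1 (dystroglycan, -0.01 ± 0.09). Of 12 neuronal splicing factors 0 were called, with a median of -0.03, the most abundant being Celf4 (0.03 ± 0.08) and Mbnl2 (-0.07 ± 0.14).

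The synaptic and channel partners gave the same count. Of 14 AMPA receptor and auxiliary subunits 0 were called, with a median log2 fold change of 0.02, including Gria2, the subunit that sets calcium permeability, with -0.07 ± 0.15 (SE), and Gria4 with 0.02 ± 0.15. Of 7 Kv7 channel subunits (Kcne1 and Kcne3 had too few counts) 0 were called (median -0.03), including the accessory subunit Kcne2 with -0.11 ± 0.09. Of 10 netrin-G ligands and partners 0 were called (median 0.03), including the scaffold Dlg4 (PSD-95, 0.04 ± 0.15) and the receptor phosphatase Ptprs (0.05 ± 0.11). Of 11 paralogs of Zic2, Tox and Zmat4 0 were called (median -0.07), the most abundant being Tox4 with -0.05 ± 0.08 and Zmat2 with -0.07 ± 0.09. With the mouse as a block, no gene of these lists passed after adjustment. At an unadjusted p under 0.05 in that fit, Braf, Gria3 and Gria4 were among the genes higher and Nid2 and Zic4 among those lower in FDM.

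Among 26 genes of other refractive error loci, 2 were called, both lower in FDM (1.61% of all genes called, 1.16% lower), and 20 had log2 fold changes below 0 (76.9%, compared with 55.6% of all genes). The median log2 fold change was -0.05, or 0.02 in the fit that blocked on the mouse. The 2 genes called were Rgr, an opsin of the RPE and Müller glia, and Rdh5, a retinol dehydrogenase of the visual cycle in the RPE, and both were also on the list of RPE markers. Rgr had 859 and 780 counts in FDM 1 and FDM 3 and 930, 3991 and 3252 in Control 1, 2 and 3. Rdh5 had 451 and 412 counts in FDM and 433, 1401 and 1135 in the controls. For both genes Control 1 was close to the FDM libraries and Controls 2 and 3 were well above them.

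The log2 fold change of Rgr was -1.59 ± 0.44 (SE; edgeR adjusted p = 1), and within pairs it was -0.23 in mouse 1 and -2.08 in mouse 3. That of Rdh5 was -1.06 ± 0.34 (SE; edgeR adjusted p = 1), and within pairs it was -0.06 and -1.48. Rdh5 was not called without FDM 3 or without Control 3, while Rgr was called with each library left out. Gjd2, which encodes the neuronal gap junction protein connexin 36 and names another such locus, was given here after its value was seen, with a log2 fold change of -0.04 ± 0.09 (SE).

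A list of 8 enzymes, receptors and other proteins tied to eye size gave 2 genes called, both lower in FDM. Over all genes tested 1.61% were called and 1.16% were called lower. The median log2 fold change of the list was -0.36. Mfrp, a membrane protein of the RPE mutated in nanophthalmos, had 235 and 274 counts in FDM 1 and FDM 3 and 210, 968 and 1322 in Control 1, 2 and 3, so its lowest value was a control, and its log2 fold change was -1.59 ± 0.59 (SE; edgeR adjusted p = 1). Tmem98, a transmembrane protein linked to the same condition, had 486 and 499 counts in FDM and 449, 857 and 845 in the controls, with a log2 fold change of -0.45 ± 0.19 (SE; edgeR adjusted p = 1). Either gene passed with only 1 of the 5 libraries left out, namely Control 1. The part of the RPE in these differences was not tested. With the mouse as a block, which called 7.23% of all genes (3.67% lower), 4 genes of the list were lower in FDM. They were Mfrp, Tmem98, C1qtnf5, which is expressed in the RPE, and Egr1, an immediate early transcription factor. Egr1 alone of these passed adjustment. This fit has 2 complete eye pairs, and a gene can pass in it on 1 mouse. The lens gene Cryaa did so (edgeR adjusted p = 8.83e-06), with log2 differences of -0.12 in mouse 1 and 7.86 in mouse 3. Egr1 was at 74.3 and 39.8 CPM in FDM 1 and FDM 3 and at 119, 29.5 and 87.9 CPM in Control 1, 2 and 3. By the column numbers the FDM eye was lower than its fellow eye in both mice, with log2 differences of -0.68 and -1.14. Control 2, the lowest library, is the mate of FDM 3 by the label numbers, and FDM 3 was above it. The log2 fold change of Egr1 was -0.91 with the block by column numbers (edgeR adjusted p = 0.0057) and -0.47 ± 0.53 (SE; adjusted p = 1) without it.

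The genes near the members were listed because a locus may act on a neighbour. Within 250 kb of the 10 genes the annotation held 112 genes, of which 24 were tested. Of these 24, 1 was called (4.17%, compared with 1.61% of all genes): Kcnj13, a potassium channel of the RPE that lies 198 kb from Prss56. It had 26 counts in either FDM library and 46, 320 and 177 in Control 1, 2 and 3. Its log2 fold change was -2.63 ± 0.64 (SE; edgeR adjusted p = 1), and it stayed under the threshold with each library left out. Kcnj13 was itself on the list of RPE markers and was high in the controls where that list was high. Prss56 was highest in Control 1. The part of the RPE in the Kcnj13 difference was not tested. No other neighbour passed, and with the mouse as a block Ctsh, a lysosomal protease gene 27.2 kb from Rasgrf1, also had an unadjusted p under 0.05, with a log2 fold change of -0.18.

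Most members had a long gene body. Whether the naming of loci after a nearby gene favours long genes, or genes with few neighbours, was not tested. Their bodies had a median length of 417 kb, compared with 20.9 kb for the 17413 tested genes with a position. Lrrc4c at 1313 kb and Rbfox1 at 1526 kb were at percentile 99.9 of all genes, and Lama2, Kcnq5, Zmat4, Shisa6 and Tox lay between percentiles 97 and 99.2. Prss56, at 5.09 kb, and Zic2, at 4.42 kb, were short, and Rasgrf1, at 117 kb, stood at percentile 89.1. The members had a median of 1.5 tested genes within 250 kb, compared with 7 for all genes tested, while Prss56 had 7 and Rasgrf1 had 6. Exons of Lama2, Kcnq5 and Tox overlap those of a non-coding gene in the annotation, so that reads of the overlapping stretch cannot be assigned with certainty, as the library kit does not keep the strand.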

How the data were processed

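Retinal RNA was enriched for poly-A transcripts and sequenced by the authors. They trimmed reads with Trimmomatic 0.39 and quantified transcripts with Salmon 1.10.1, and they deposited estimated counts per gene as whole numbers and a normalized signal per gene from DESeq2. The build named in the labels is GRCm38. The authors left out 1 FDM library for its read duplication, which is not analysed here.

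Groups came from the sample labels. Genes with more than 10 estimated counts in at least 2 libraries (17432) were tested in R 4.3.3 by edgeR's quasi-likelihood test (version 4.0.16) after TMM scaling, without covariates. An unadjusted p of 0.05 was the threshold, as in the study, and Benjamini-Hochberg values are over all genes tested. This fit treats the eyes of a mouse as independent. Levels are CPM with TMM, given as mean ± SD or per library, and standard errors are those of the log2 fold change. DESeq2 1.42.0, limma 3.58.1, other scalings and filters, each library left out, and the mouse as a block were alternatives. Positions and exon lengths are from GENCODE M21, which held 33586 of the identifiers. The script was tested on simulated data.

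The pairing rests on the study's statement that fellow eyes were compared and on the column numbers. Across genes, deviations from the group means had a correlation of 0.229 between FDM 1 and Control 1, of 0.0884 between FDM 3 and Control 3 and of 0.151 between FDM 3 and Control 2. With 2 FDM libraries the deviations of FDM 3 mirror those of FDM 1, so these values are not separate checks of the pairs.

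The members and lists were chosen with earlier results of these data known. Named genes are the 10 members, every list gene or neighbour with an unadjusted p under 0.05, and otherwise the 2 most abundant genes of a list. Results for some genes of the lists and families are not reported here. Paralogs and genes named for the block were added after the values were seen. Differences of fellow eyes are on log2 CPM with a pseudocount of 0.5 counts.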

Additional observations from a re-analysis of the deposited data

How the results depend on the processing

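The count of members called was 0 under all alternatives run except without Control 1, where it was 1 (leave-one-out range 0 to 1). Of 150 alternative member values, 131 kept direction and side of the threshold, 1 passed it (Zic2) and 18 turned sign, all in members with small changes. The log2 fold change of Zmat4 became 0.002 with DESeq2, with its size factors and with limma at a pseudocount of 1 or 0.1, 0.012 with upper quartile scaling, 0.13 with the mouse as a replicate block, and 0.042 and 0.137 without FDM 1 and Control 2 (leave-one-out range -0.105 to 0.137). That of Lrrc4c became -0.001 with the authors' factors, -0.036 with the label numbers as a block, and -0.002 and -0.031 without FDM 3 and Control 3 (range -0.031 to 0.069). That of Shisa6 became -0.054 with the label numbers as a block, -0.037 and -0.049 without FDM 1 and Control 3, 0.21 with the authors' factors and 0.208 and 0.209 with limma. That of Rbfox1 became -0.007 and -0.018 without FDM 3 and Control 1 (range -0.018 to 0.07), and that of Kcnq5 -0.101 without Control 1 (range -0.101 to 0.288). All genes called numbered 172 with DESeq2, 498 without the count filter, 1261 with the replicate block and 439 with the block by label numbers, with 146 to 944 when a library was left out; with adjustment 54 passed with the replicate block, 128 with the label numbers, 16 without FDM 1, 12 without Control 1, 3 with DESeq2 and 0 otherwise. Calls were 622 higher and 639 lower with the replicate block, and 355 and 195 without Control 2, against 79 and 202. The other refractive error loci called numbered 4 with the replicate block and 1 to 4 with a library left out, and genes of all lists called, markers included, numbered 39 with the block and 18 without. The pairing changed no call of a member. The log2 differences within pairs moved to 0.10 for Tox in mouse 1 and to 0.44 for Shisa6 in mouse 3, and within the control spread from -0.06 to 0.06 for Lama2 and from 0.53 to 0.18 for Kcnq5 in mouse 1, on the authors' normalized signal plus 1. The cause was not tested.

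With 2 against 3 libraries, the 95% intervals of 6 of the 10 members extended beyond 1.2-fold. Kcnq5, Lama2, Prss56 and Zic2 had 33 to 227 counts per library.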
